A study of Mus musculus with 10 samples.

Results

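The genes that build cholesterol and fatty acids in the liver are described here in 10 whole-liver RNA libraries. The list holds 38 genes, all of them matched by symbol among the 55385 Ensembl gene IDs of the tables, and all 38 passed the filter on low counts that left 12872 genes for testing. They were set as a list of names, with earlier results of these data known. They form a sterol branch of 20 genes around the regulator Srebf2 and a lipogenic branch of 18 genes around the regulator Srebf1. The libraries are 5 labelled Alk1-HEC-KO, with the genotype given as KO, and 5 control libraries. Alk1 is another name of Acvrl1, a receptor of the BMP family found mainly on endothelial cells. The strain, age, feeding state and time of collection of the mice, what the letters HEC stand for, and the promoter or cell type that drives the deletion are not given in the sources used here. Whether each library is a separate mouse is not stated, and the p-values therefore describe the spread among these libraries, which may be technical.

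The labels and the tissue were checked first. Acvrl1 was at 1.15, 1.39, 1.22, 1.92 and 1.12 TPM in libraries 1 to 5 labelled Alk1-HEC-KO, against 1.05, 0.296, 0.391, 0.661 and 0.951 TPM in control libraries 1 to 5. The labelled knockout libraries were all above the control libraries, the opposite of what the label names, so these libraries are called by their label throughout. The log2 fold change of Acvrl1 was 0.99 ± 0.32 (SE, adjusted p = 0.336) from edgeR. Of 6 endothelial markers 5 were above 0 too, with a median log2 fold change of 0.61. The part of endothelial content in the level of Acvrl1 was not tested. Liver tissue was checked by hepatocyte markers, which summed to 36639 to 70939 TPM in the labelled knockout libraries and 40282 to 71303 TPM in the control libraries. Library totals were 20.91 to 21.56 M estimated counts, and every member other than Pnpla3 had between 217 and 353375 counts in every library.

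Cholesterol is made from acetyl-CoA through mevalonate, squalene and lanosterol, and fatty acids are made from the same acetyl-CoA through malonyl-CoA. The genes of the first route are classical targets of the transcription factor SREBP-2 (encoded by Srebf2), which is cut free of the endoplasmic reticulum when sterols there run low. Those of the second are targets of SREBP-1c (from Srebf1), which insulin raises in the liver, and of the glucose-responsive factor ChREBP (from Mlxipl). In mouse liver both routes vary with feeding, fasting and time of day.

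The proximal promoters show what the members share in sequence. SREBPs bind sterol regulatory elements, commonly beside a CCAAT box bound by the factor NF-Y, and ChREBP works through pairs of E-box-like sequences. In the RefSeq promoter table (GRCm38.p6), 30 of the 38 members had at least 1 window of 250 bases before a transcript start. A CCAAT box on either strand was present for 15 of 16 sterol genes (93.8%) and 10 of 14 lipogenic genes (71.4%), against 40.8% of the 9733 tested genes with a window and 37.5% of all 27025 genes in the table. Mvk held 5 such boxes, the most of any member, and Hmgcs1, Hsd17b7, Msmo1 and Fasn held 3 each, while Acat2 was the sterol gene without one. The letters CACGTG, a full E-box that reads the same on both strands, were found for 4 of 16 sterol genes (25.0%) and 2 of 14 lipogenic genes (14.3%), against 9.94% of tested genes. The sterol element searched as TCACNCCAC on both strands was found for Hmgcs1 in the sterol branch (6.25% of its genes) and Mlxipl in the lipogenic branch (7.14%), against 1.35% of tested genes. Genes with several windows were counted once, by any window, and these shares are a description with no test.

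The windows of Hmgcs1, Fasn and Mlxipl are printed because they hold the sterol element or 3 CCAAT boxes without any annotated exon inside. Each runs 5′ to 3′ on the strand of its gene and ends at the base before the transcript start. Capitals mark the matched letters: TCACCCCAC in Hmgcs1, TCACACCAC in Mlxipl, and CCAAT or its reverse complement ATTGG in Hmgcs1 and Fasn. In Fasn 2 boxes on opposite strands overlap in CCAATTGG. The Mlxipl window lies before a transcript that starts inside the gene.
Hmgcs1 (chr13:119690101-119690350, plus strand, GRCm38.p6): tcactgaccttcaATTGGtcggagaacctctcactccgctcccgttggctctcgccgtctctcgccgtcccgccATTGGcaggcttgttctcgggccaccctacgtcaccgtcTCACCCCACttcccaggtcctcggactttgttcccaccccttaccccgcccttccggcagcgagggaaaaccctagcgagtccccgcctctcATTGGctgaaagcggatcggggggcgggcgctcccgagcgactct
Fasn (chr11:120824548-120824797, minus strand, GRCm38.p6): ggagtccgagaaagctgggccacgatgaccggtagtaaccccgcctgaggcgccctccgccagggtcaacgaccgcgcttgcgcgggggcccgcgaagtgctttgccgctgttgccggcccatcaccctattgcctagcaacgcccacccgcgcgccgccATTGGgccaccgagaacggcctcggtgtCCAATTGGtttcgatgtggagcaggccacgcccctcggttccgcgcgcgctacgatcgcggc
Mlxipl (chr5:135106641-135106890, plus strand, GRCm38.p6): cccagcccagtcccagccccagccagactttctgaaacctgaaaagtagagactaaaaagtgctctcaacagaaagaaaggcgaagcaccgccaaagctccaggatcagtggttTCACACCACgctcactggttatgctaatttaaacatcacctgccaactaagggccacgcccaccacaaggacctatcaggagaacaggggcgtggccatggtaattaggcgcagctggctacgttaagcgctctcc
In Hmgcs1 the sterol element spans 137 to 129 bases before the start, with CCAAT boxes 176 to 172 bases and 45 to 41 bases before it on either side. The Mlxipl element spans 136 to 128 bases before its start. Matched letters are not shown to be bound in these livers.

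The main comparison asks whether these genes differ between livers labelled Alk1-HEC-KO and control livers. None of the 38 members passed an adjusted p of 0.05 in edgeR's quasi-likelihood test in either direction, against 46 of all 12872 tested genes (0.357%). DESeq2 and limma-voom called 0 members too. Unadjusted p-values under 0.05 were found for 2 members, Nsdhl and Elovl3, both lower in the labelled knockout libraries, where 8.44% of all tested genes had such a p. The TPM ranges of the groups overlapped for every member, and in log2 CPM (scaled counts on the log2 scale) no member had groups that did not overlap, against 1.68% of tested genes. Adjusted p-values of the members ran from 0.519 to 0.970, and the 95% interval of the log2 fold change held 0 for 36 of 38.

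The fitted values nevertheless leaned one way, which is given as a description with no test. In the sterol branch 19 of 20 log2 fold changes were below 0, with a median of -0.33, and Srebf2 was the exception at 0.16. In the lipogenic branch 18 of 18 were below 0, with a median of -0.46, although Srebf1 stood at 0.025 when libraries were scaled by their totals. The lean did not hold in the lipogenic branch once the run of file numbers was fitted, with 6 genes below 0, 12 above and a median of 0.12, or without the third run, with 7 below and 11 above. In the sterol branch these fits gave 12 below and 8 above, and 13 below and 7 above. The third run holds labelled knockout libraries 2, 4 and 5 and no control library. In both fits the group difference therefore rests on labelled knockout libraries 1 and 3, and the fits are not separate checks. Among all tested genes 49.6% were below 0 and the median was 0.00. Some other gene lists leaned too, in either direction. Of 15 tested clock genes 13 were below 0, with a median of -0.29, and of 10 male-biased liver genes 8 were, with a median of -0.42. Of 12 acute phase genes 10 were above 0, with a median of 0.80. Members covary across libraries, as described further on, so their directions are not separate observations. In whole liver, fewer cells of a type and less RNA per cell cannot be told apart.

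**Figure D1:**
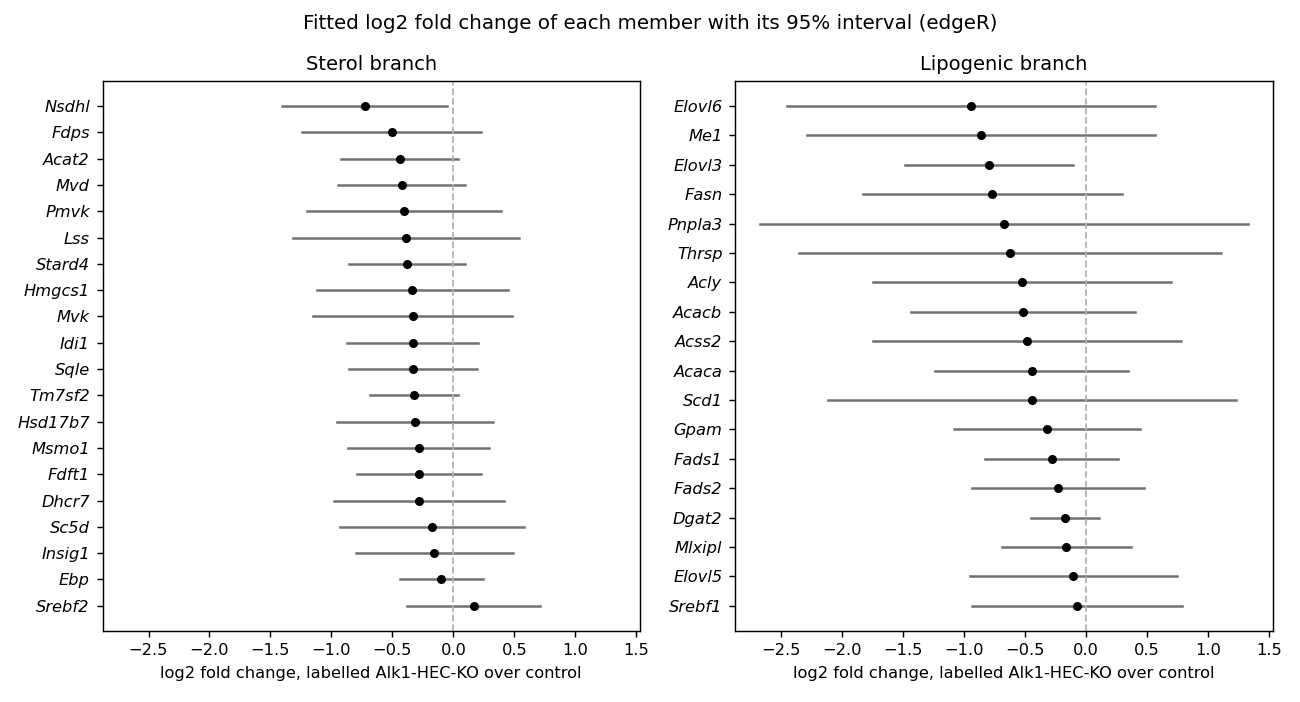
Fitted log2 fold change of each member (edgeR, labelled Alk1-HEC-KO over control, x axis) with its 95% interval (line), sterol branch on the left and lipogenic branch on the right. Intervals of Nsdhl and Elovl3 end below 0, and those of the other 36 genes hold 0.

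Much of the spread sat in a few libraries, which are described here before the single genes. Labelled knockout library 5 had the lowest log2 CPM of all 10 libraries for 12 of 20 sterol genes and 15 of 18 lipogenic genes, and the lowest TPM for 17 and 16 of them. It was below every control library in log2 CPM for 18 sterol and 16 lipogenic genes, and in TPM for 18 and 17. Labelled knockout library 2 was below every control library in log2 CPM for 13 sterol and 12 lipogenic genes, and in TPM for 7 and 6. The shares of all tested genes with such extremes were not counted, so these counts may not be particular to the members. Among the hepatocyte markers, Alb, Fabp1, Tat, Cps1 and Cyp2e1 also had their lowest TPM in labelled knockout library 5, while Ttr, Ahsg and Hnf4a did not. The median deviation of labelled knockout library 5 from the mean of the gene over 10 libraries was -0.67 (log2) in the sterol branch and -1.35 in the lipogenic branch. Labelled knockout library 2 was low too, at -0.46 and -0.74. Labelled knockout library 3 was high in both branches, at 0.57 and 0.40, and had the highest log2 CPM of 5 sterol genes and the highest TPM of 8. Among control libraries, library 2 was highest for 12 of 18 lipogenic genes on either scale, with a median deviation of 1.28, while control library 4 stood high in the sterol branch, at 0.49, with the highest log2 CPM of 7 genes and the highest TPM of 4, and near the middle in the lipogenic branch, at -0.082.

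Libraries labelled Alk1-HEC-KO varied more among themselves than control libraries did for 19 of 20 sterol genes and 11 of 18 lipogenic genes, by the SD of log2 CPM. The share of all tested genes that did so was not counted, so these counts may not be particular to the members. Over all tested genes, pairs of labelled knockout libraries had a Pearson r of 0.948 to 0.970 in log2 CPM. Pairs of control libraries had 0.960 to 0.978. The pooled SD within groups had a median of 0.51 in the sterol branch and 0.74 in the lipogenic branch. Over all tested genes that median was 0.31, and it was 0.24 over the 4431 tested genes averaging 10 TPM or more. The difference in spread between branches and other genes was not tested.

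**Figure D2:**
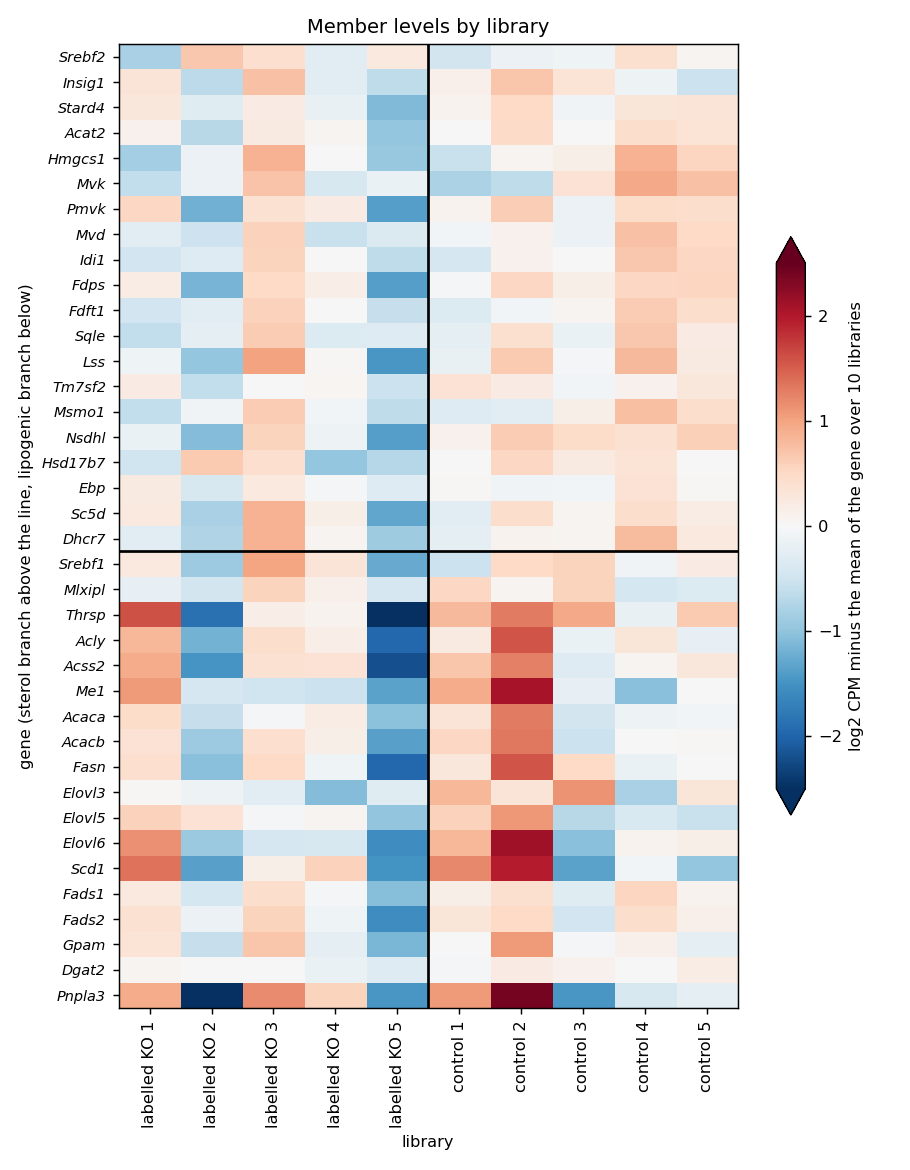
Level of each member (rows, sterol branch above the horizontal line and lipogenic branch below) in each library (columns, labelled knockout left of the vertical line and control right), as log2 CPM minus the mean of the gene over 10 libraries. Labelled knockout library 5 is low over nearly all genes, control library 2 is high over the lipogenic branch, and labelled knockout library 3 and control library 4 are high over the sterol branch.

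Other gene groups marked the same libraries. Labelled knockout library 2 held the highest levels of several genes of the fasting response: the fatty acid hydroxylase Cyp4a14 was at 3.41, 188, 2.43, 0.424 and 22.7 TPM in libraries 1 to 5 labelled Alk1-HEC-KO, against 7.90, 1.65, 1.88, 4.33 and 3.31 TPM in control libraries 1 to 5. Cpt1a, the carnitine palmitoyltransferase that admits fatty acids to mitochondria, was at 161 TPM in labelled knockout library 2 and between 40.6 and 80.6 TPM in every other library. Other genes of that list, Pdk4, G6pc, Irs2 and Ppargc1a, were instead highest in control library 2. There Pdk4 was at 2.39 TPM and G6pc at 346 TPM, against 0.695 and 322 TPM in labelled knockout library 2. Over the 12 genes of the fasting response, 6 were below 0, none was called by edgeR and 0 had an unadjusted p under 0.05, with summed levels of 1092 to 5201 TPM in the labelled knockout libraries and 1348 to 2487 TPM in the control libraries. Labelled knockout library 5 had the lowest level of several clock genes: Per1, a clock repressor, was at 7.81, 7.34, 4.50, 4.07 and 0.676 TPM in libraries 1 to 5 labelled Alk1-HEC-KO, against 8.90, 8.44, 5.49, 8.04 and 6.67 TPM in control libraries 1 to 5. Of 15 tested clock genes of 16 listed, 13 were below 0, none was called and 1 had an unadjusted p under 0.05, with sums of 105 to 338 TPM in the labelled knockout libraries and 206 to 358 TPM in the control libraries.

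Acute phase genes, made by the liver in inflammation, were highest in sum in labelled knockout library 5. Haptoglobin, Hp, was at 1857, 7071, 4026, 5054 and 10202 TPM in libraries 1 to 5 labelled Alk1-HEC-KO, against 1595, 1469.9, 2032, 7954 and 3001 TPM in control libraries 1 to 5. The sum over the 12 acute phase genes was 4758 to 46184 TPM in the labelled knockout libraries and 4209 to 28615 TPM in the control libraries, with 10 genes above 0, none called and 0 at an unadjusted p under 0.05. Immediate early genes were high in control libraries 1 and 2: Fos was at 1.97, 1.59, 1.09, 3.03 and 1.76 TPM in libraries 1 to 5 labelled Alk1-HEC-KO, against 27.6, 24.2, 4.92, 2.42 and 1.80 TPM in control libraries 1 to 5. All 11 tested immediate early genes of 12 listed had fold changes below 0 (10 when scaled by totals), none was called and 6 had an unadjusted p under 0.05, with sums of 135 to 316 TPM in the labelled knockout libraries and 183 to 673 TPM in the control libraries. Genes of adipocytes, another lipogenic cell, summed to at most 1.39 TPM in any library, with 2 of 6 at 0 in every library. The part of these gene groups in the levels of the members was not tested, beyond the values without such libraries given further on.

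Regulators and a carrier open the sterol branch. Srebf2 (ENSMUSG00000022463.8, chr15:82147181-82205379, plus strand, GRCm38, as are all gene positions here) encodes SREBP-2 itself. It was at 8.44, 23.7, 20.8, 11.1 and 11.6 TPM in libraries 1 to 5 labelled Alk1-HEC-KO, against 8.44, 14.0, 10.8, 18.5 and 14.3 TPM in control libraries 1 to 5. In TPM labelled knockout libraries 2 and 3 were above every control library, library 1 stood level with the lowest control library, and libraries 4 and 5 lay within the control range. In log2 CPM labelled knockout library 1, at 4.74, was below the lowest control library, at 5.08. Its log2 fold change was 0.16 ± 0.25 (SE, edgeR, adjusted p = 0.886). Insig1 (ENSMUSG00000045294.11, chr5:28071363-28078662, plus strand) encodes the membrane protein that holds SREBPs in the endoplasmic reticulum and is itself an SREBP target. It was at 180.1, 106, 259.8, 116 and 71.7 TPM in libraries 1 to 5 labelled Alk1-HEC-KO, against 147, 254, 138, 137 and 91.5 TPM in control libraries 1 to 5. The highest and the lowest library were both labelled knockout, numbers 3 and 5, and the fit gave a log2 fold change of -0.16 ± 0.30 (SE, adjusted p = 0.913), which was 0.032 without control library 2. Stard4, a sterol carrier of the cytosol, averaged 21.2 ± 8.10 TPM in the libraries labelled Alk1-HEC-KO and 25.9 ± 7.03 TPM in control libraries (SD, n = 5 each), a log2 fold change of -0.38 ± 0.22.

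The 7 genes of the mevalonate and isoprenoid steps had log2 fold changes of -0.51 to -0.33, and none passed the test. Acat2 (ENSMUSG00000023832.14, chr17:12942890-12960747, minus strand) joins 2 acetyl-CoA at the start of the route. It was at 35.9, 23.2, 42.9, 34.7 and 13.5 TPM in libraries 1 to 5 labelled Alk1-HEC-KO, against 30.1, 48.9, 25.6, 46.3 and 39.6 TPM in control libraries 1 to 5. Labelled knockout libraries 5 and 2 were below every control library and the other 3 lay within the control range, with a log2 fold change of -0.44 ± 0.22 (SE, adjusted p = 0.627). Its near copy Acat3 was at 59.7 to 104 TPM in the labelled knockout libraries and 78.2 to 101 TPM in the control libraries, and reads that the copies share may have been split between them.

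Mvd (ENSMUSG00000006517.5, chr8:122433601-122443422, minus strand) removes carbon dioxide to make isopentenyl diphosphate. It was at 10.7, 10.5, 21.4, 8.53 and 7.74 TPM in libraries 1 to 5 labelled Alk1-HEC-KO, against 11.4, 15.3, 8.80, 22.5 and 17.2 TPM in control libraries 1 to 5. Labelled knockout library 3 and control library 4 stood near each other at the top. In TPM the other 4 labelled knockout libraries lay within or just under the range of the lower control libraries. In log2 CPM these 4 were all below the lowest control library, at 4.05. The log2 fold change was -0.42 ± 0.24 (SE, edgeR, adjusted p = 0.686). The annotated gene Gm20388 covers all of Mvd on the other strand, and whether the counting used strand is not given in the sources used here.

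Fdps (ENSMUSG00000059743.12, chr3:89093588-89101959, minus strand) makes farnesyl diphosphate, the branch point to squalene, and was the most abundant sterol gene by TPM. It was at 321, 148, 448, 316 and 84.2 TPM in libraries 1 to 5 labelled Alk1-HEC-KO, against 252, 450.5, 241, 427 and 391 TPM in control libraries 1 to 5. Labelled knockout libraries 2 and 5 were below every control library, the other 3 were within the control range, and the fit gave a log2 fold change of -0.51 ± 0.33 (SE, adjusted p = 0.719). The remaining genes of these steps are the HMG-CoA synthase gene Hmgcs1, whose promoter is printed above, the kinase genes Mvk and Pmvk, and the isomerase gene Idi1. Hmgcs1 ranged over 29.2 to 148 TPM in labelled knockout libraries and 46.1 to 139 TPM in control libraries, and its interval was -1.12 to 0.45 on the log2 scale. Mvk averaged 19.1 ± 9.65 TPM in the libraries labelled Alk1-HEC-KO and 23.0 ± 12.5 TPM in control libraries, and was the one sterol gene besides Srebf2 with its lowest TPM in a control library. Pmvk averaged 32.0 ± 17.5 TPM in the libraries labelled Alk1-HEC-KO and 40.4 ± 13.0 TPM in control libraries, and Idi1 65.3 ± 29.0 TPM in the libraries labelled Alk1-HEC-KO and 77.6 ± 28.0 TPM in control libraries (SD, n = 5 each).

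Squalene and lanosterol are made by the products of Fdft1, Sqle and Lss, with log2 fold changes of -0.39 to -0.28. Sqle, squalene epoxidase, a rate-limiting oxygen-dependent step, averaged 33.0 ± 15.9 TPM in the libraries labelled Alk1-HEC-KO and 39.6 ± 14.8 TPM in control libraries. Its 95% interval was -0.85 to 0.20 (log2), and its highest TPM was in labelled knockout library 3. The squalene synthase gene Fdft1 averaged 51.2 ± 22.7 TPM in the libraries labelled Alk1-HEC-KO and 57.1 ± 19.4 TPM in control libraries (SD, n = 5 each), and it overlaps the more abundant gene Ctsb on the other strand by 774 bases. Lss, lanosterol synthase, ranged most of the 3, over 5.34 to 36.9 TPM in labelled knockout libraries and 11.9 to 32.2 TPM in control libraries.

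The 7 genes from lanosterol to cholesterol had log2 fold changes of -0.73 to -0.10, and 1 of them, Nsdhl, had an unadjusted p under 0.05. Nsdhl (ENSMUSG00000031349.4, chrX:72918557-72958514, plus strand), a sterol dehydrogenase that helps remove methyl groups, had the sterol branch's smallest p and its largest fitted change. It was at 39.2, 24.5, 71.1, 39.4 and 13.3 TPM in libraries 1 to 5 labelled Alk1-HEC-KO, against 44.2, 75.7, 45.9, 60.0 and 63.1 TPM in control libraries 1 to 5. Of the labelled knockout libraries, 4 were below every control library and library 3 lay among the highest controls. The log2 fold change was -0.73 ± 0.31 (SE, 95% interval -1.40 to -0.054), with an unadjusted p of 0.0366 and an adjusted p of 0.551 in edgeR.

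Tm7sf2 (ENSMUSG00000024799.16, chr19:6062821-6068373, minus strand) encodes a sterol reductase and varied least of the sterol genes, by the ratio of its highest to its lowest library, 2.42. It was at 124, 81.6, 121, 109 and 56.9 TPM in libraries 1 to 5 labelled Alk1-HEC-KO, against 129.9, 138, 79.3, 122 and 122 TPM in control libraries 1 to 5. In TPM labelled knockout library 5 alone lay below all control libraries. In log2 CPM libraries 2 and 5 both did, at 6.33 and 6.40 against a lowest control value of 6.87. The log2 fold change was -0.32 ± 0.17 (SE, edgeR, adjusted p = 0.647). The gene overlaps Vps51 on the same strand by 532 bases, so some of its counts may belong to that gene. Dhcr7, the last reductase of the route, averaged 52.6 ± 32.8 TPM in the libraries labelled Alk1-HEC-KO and 60.3 ± 22.3 TPM in control libraries, and Msmo1, a methyl sterol oxidase, 150.5 ± 71.5 TPM in the libraries labelled Alk1-HEC-KO and 169.7 ± 64.0 TPM in control libraries (SD, n = 5 each). Sc5d, a sterol desaturase, had the widest range of the branch, 51.0 to 475 TPM in labelled knockout libraries and 145 to 343 TPM in control libraries, and its log2 fold change of -0.18 ± 0.34 was 0.030 without labelled knockout library 5. Ebp, the sterol isomerase, averaged 155 ± 50.9 TPM in the libraries labelled Alk1-HEC-KO and 159 ± 40.0 TPM in control libraries, the value of the branch closest to no change among those below 0, at -0.10 ± 0.16. Hsd17b7, a keto-reductase, had its lowest TPM in labelled knockout library 4, with a range of 5.20 to 20.3 TPM in labelled knockout libraries and 9.35 to 16.8 TPM in control libraries.

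**Figure D3:**
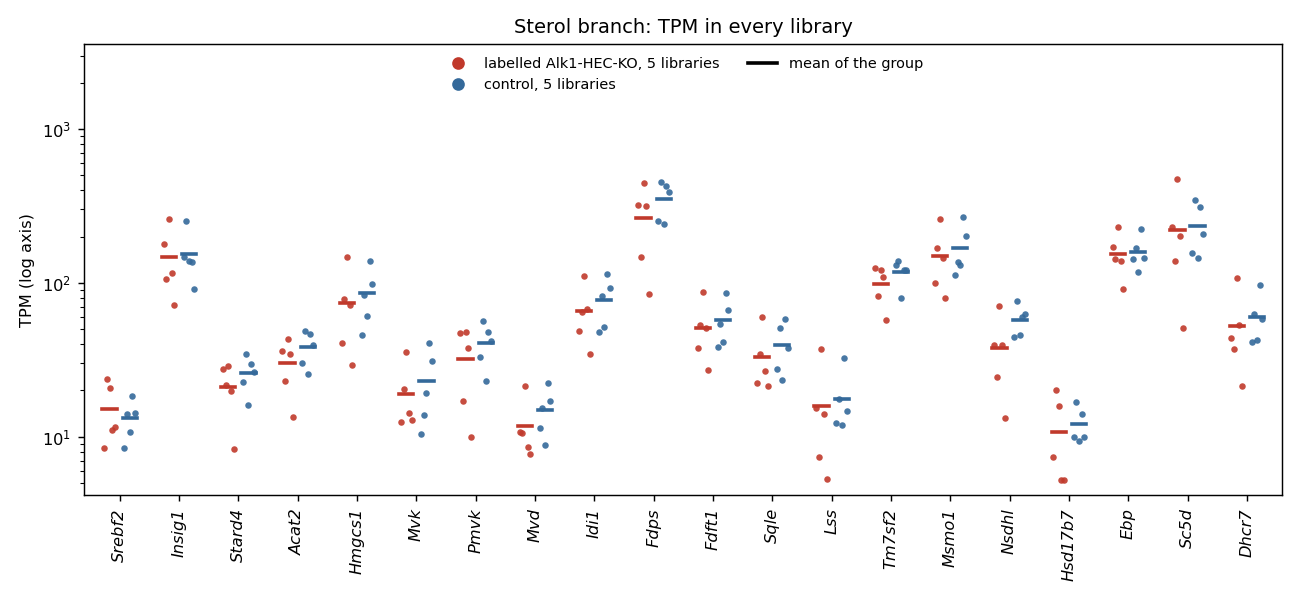
TPM (log axis) of the 20 sterol branch genes (x axis) in each of 5 libraries labelled Alk1-HEC-KO (red, left of each pair) and 5 control libraries (blue, right), with the group mean as a bar. The groups overlap for every gene, and the lowest red point lies under the blue points for most of them.

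The lipogenic branch opens with its regulators. Srebf1 (ENSMUSG00000020538.15, chr11:60199089-60222581, minus strand) encodes SREBP-1, and values per gene do not separate SREBP-1c from the other isoforms. It was at 112, 63.2, 208, 115 and 35.1 TPM in libraries 1 to 5 labelled Alk1-HEC-KO, against 71.3, 146, 114, 97.3 and 105 TPM in control libraries 1 to 5. Both extremes were labelled knockout libraries, number 3 high and number 5 low, around group means of 106.81 TPM in the labelled knockout libraries and 106.83 TPM in the control libraries. The log2 fold change of -0.075 ± 0.39 (SE, edgeR, adjusted p = 0.970) changed sign when any of 4 libraries was left out, to 0.11 without labelled knockout library 2, 0.13 without 5, 0.030 without control library 2 and 0.040 without control library 3.

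Mlxipl (ENSMUSG00000005373.13, chr5:135089890-135138382, plus strand), the gene of ChREBP, was at 45.6, 40.3, 79.4, 54.8 and 27.6 TPM in libraries 1 to 5 labelled Alk1-HEC-KO, against 72.4, 57.0, 59.8, 34.0 and 33.9 TPM in control libraries 1 to 5. Of the control libraries 3 had higher and 2 had lower values, all inside the range of the labelled knockout libraries, with a log2 fold change of -0.16 ± 0.24 (SE, adjusted p = 0.886). Thrsp, a small protein induced by thyroid hormone and carbohydrate that is tied to lipogenesis, had the widest range of all members, with its highest library at 44.7 times its lowest. It was at 1525, 164, 632, 530.2 and 34.1 TPM in libraries 1 to 5 labelled Alk1-HEC-KO, against 827, 1381, 740.04, 469 and 754 TPM in control libraries 1 to 5. Labelled knockout library 1 was the highest of all and libraries 5 and 2 were the lowest, and its log2 fold change was -0.62 ± 0.77 (SE).

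Supply of acetyl-CoA and NADPH rests on Acly, which cuts citrate, on Acss2, which activates acetate, and on the malic enzyme gene Me1. Acly averaged 64.3 ± 41.4 TPM in the libraries labelled Alk1-HEC-KO and 91.4 ± 63.7 TPM in control libraries. Acss2 averaged 84.3 ± 58.7 TPM in the libraries labelled Alk1-HEC-KO and 114 ± 61.7 TPM in control libraries, and Me1 68.2 ± 47.2 TPM in the libraries labelled Alk1-HEC-KO and 123 ± 127 TPM in control libraries (SD, n = 5 each). In all 3 genes labelled knockout library 5 was the lowest and control library 2 the highest of the 10, with ratios of highest to lowest of 14.9 to 15.7 and log2 fold changes of -0.86 to -0.48. The gene Gss, at a mean of 35.7 TPM, overlaps part of Acss2 on the other strand.

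Fatty acid synthesis proper is carried by the acetyl-CoA carboxylases and fatty acid synthase. Fasn (ENSMUSG00000025153.9, chr11:120805846-120824547, minus strand), whose promoter is printed above, makes palmitate. It was at 376, 140.1, 383, 231 and 48.6 TPM in libraries 1 to 5 labelled Alk1-HEC-KO, against 284, 659, 295, 229.5 and 246 TPM in control libraries 1 to 5. Labelled knockout libraries 5 and 2 were below all controls, and control library 2 was the highest. In TPM labelled knockout libraries 1 and 3 were above all controls but number 2. In log2 CPM, at 9.57 and 9.65, they were also just below control library 3, at 9.66. The fit gave a log2 fold change of -0.77 ± 0.48 (SE, adjusted p = 0.712), with a 95% interval of -1.83 to 0.29. Acaca, the cytosolic carboxylase, averaged 12.2 ± 4.51 TPM in the libraries labelled Alk1-HEC-KO and 16.0 ± 10.9 TPM in control libraries, and Acacb, the carboxylase of the mitochondrial surface, 13.2 ± 6.56 TPM in the libraries labelled Alk1-HEC-KO and 17.8 ± 10.6 TPM in control libraries (SD, n = 5 each).

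The 6 genes of elongation and desaturation had log2 fold changes of -0.94 to -0.10, and 1 of them, Elovl3, had an unadjusted p under 0.05. Elovl3 (ENSMUSG00000038754.5, chr19:46131897-46135694, plus strand) elongates saturated and monounsaturated very long chains and is known in mouse liver for a strong daily rhythm and higher levels in males. It was at 29.1, 31.1, 25.4, 12.8 and 18.2 TPM in libraries 1 to 5 labelled Alk1-HEC-KO, against 46.8, 38.6, 46.0, 17.3 and 32.5 TPM in control libraries 1 to 5. All labelled knockout libraries were below 4 of the 5 control libraries, and control library 4, at 17.3 TPM, was lower than 4 labelled knockout libraries. The log2 fold change was -0.80 ± 0.31 (SE, 95% interval -1.48 to -0.11). Its unadjusted p of 0.0271 and adjusted p of 0.519 in edgeR were the smallest of the 38 members. The Y-linked gene Ddx3y was at 6.11 to 12.2 TPM over all 10 libraries, and Xist was at most at 0.150 TPM.

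Elovl6 (ENSMUSG00000041220.10, chr3:129532355-129638495, plus strand), the elongase that turns palmitate into stearate, had the largest fitted change of the members. It was at 39.0, 11.2, 14.6, 13.4 and 4.63 TPM in libraries 1 to 5 labelled Alk1-HEC-KO, against 29.5, 85.0, 6.49, 20.2 and 18.6 TPM in control libraries 1 to 5. Control library 2 was the highest and labelled knockout library 5 the lowest, while control library 3 was below 4 labelled knockout libraries. Its log2 fold change was -0.94 ± 0.67 (SE, edgeR, adjusted p = 0.747), and -0.26 without control library 2. Scd1 (ENSMUSG00000037071.3, chr19:44394455-44407879, minus strand), the desaturase that makes oleate and the most abundant member by TPM, was at 2490.5, 448, 1211, 1429.5 and 269 TPM in libraries 1 to 5 labelled Alk1-HEC-KO, against 2072, 4152, 296, 988 and 472 TPM in control libraries 1 to 5. The 3 highest levels were in labelled knockout library 1 and control libraries 1 and 2, and the 4 lowest were in 2 libraries of each group. The log2 fold change was -0.44 ± 0.75 (SE, edgeR, adjusted p = 0.899) and changed sign, to 0.20, without control library 2.

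Elovl5, an elongase of polyunsaturated chains, ranged over 30.6 to 119 TPM in labelled knockout libraries and 36.7 to 183 TPM in control libraries. Its log2 fold change of -0.10 ± 0.39 (SE) became 0.084 without labelled knockout library 5, 0.012 without control library 1 and 0.27 without control library 2. Among the desaturase genes of polyunsaturated fatty acids, Fads1 averaged 131 ± 55.2 TPM in the libraries labelled Alk1-HEC-KO and 151 ± 49.0 TPM in control libraries, and Fads2 172 ± 83.7 TPM in the libraries labelled Alk1-HEC-KO and 189 ± 64.7 TPM in control libraries (SD, n = 5 each). Both had their lowest level in labelled knockout library 5.

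Glycerolipid steps close the branch. Dgat2 (ENSMUSG00000030747.5, chr7:99153658-99182719, minus strand), which makes triglyceride, varied least of all 38 members, with a ratio of highest to lowest library of 2.05. It was at 282, 318, 297, 235 and 168 TPM in libraries 1 to 5 labelled Alk1-HEC-KO, against 245, 344, 222, 281 and 290.5 TPM in control libraries 1 to 5. In TPM only labelled knockout library 5 was outside the control range. In log2 CPM libraries 4 and 5 were both below it, at 8.80 and 8.66 against a lowest control value of 8.94. The log2 fold change was -0.18 ± 0.13 (SE, edgeR, adjusted p = 0.750), with a 95% interval of -0.45 to 0.10. Gpam, the first acyltransferase of glycerolipid synthesis in mitochondria, averaged 30.0 ± 16.7 TPM in the libraries labelled Alk1-HEC-KO and 35.5 ± 20.1 TPM in control libraries (SD, n = 5 each). Pnpla3, a lipid droplet protein that tracks feeding in mouse liver, was the scarcest member, with 0 to 63 counts per library. It was at 2.21, 0, 1.25, 1.99 and 0.0810 TPM in libraries 1 to 5 labelled Alk1-HEC-KO, against 2.29, 5.76, 0.0813, 0.333 and 1.64 TPM in control libraries 1 to 5. It was listed at 0 in labelled knockout library 2 and at 0.081 TPM in labelled knockout library 5 and control library 3, and the sign of its fold change turned, to 0.33, without control library 2.

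**Figure D4:**
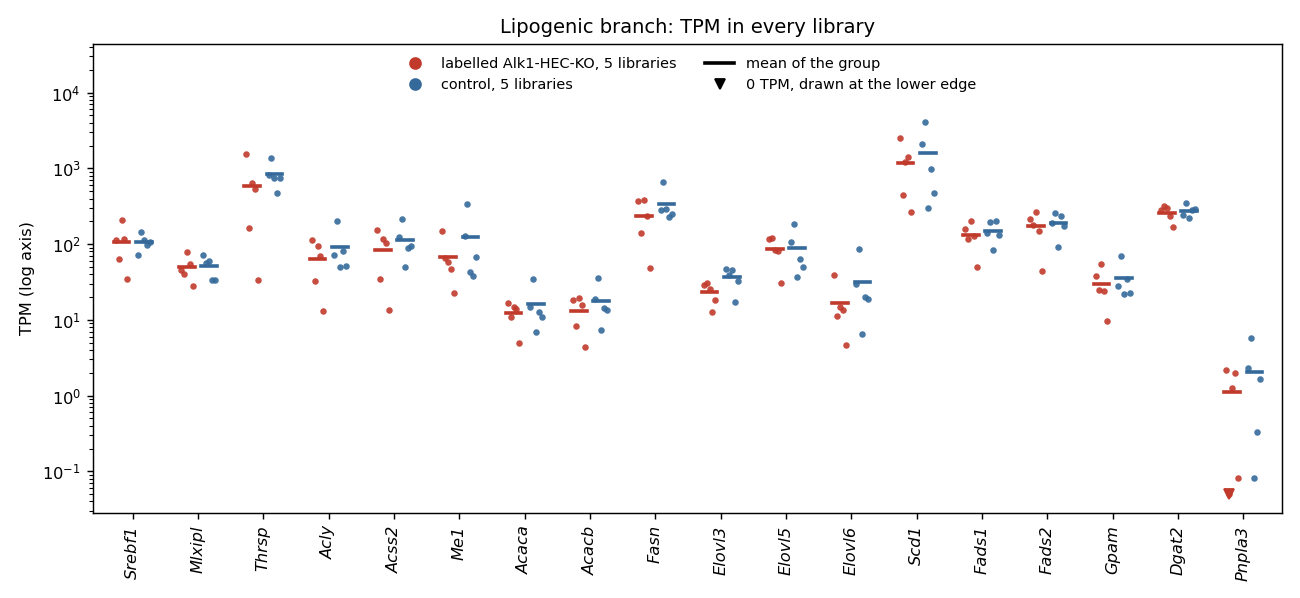
TPM (log axis) of the 18 lipogenic branch genes (x axis) in each of 5 libraries labelled Alk1-HEC-KO (red, left of each pair) and 5 control libraries (blue, right), with the group mean as a bar and a triangle for the 1 value of 0. The groups overlap for every gene, and Dgat2 is narrow while Thrsp and Scd1 each spread widely.

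Members of a branch tended to be high or low in the same libraries. Between pairs of sterol genes the median Pearson r of log2 CPM was 0.64 over 190 pairs, and between pairs of lipogenic genes 0.72 over 153 pairs. Pairs with a gene of each branch had a median of 0.43 over 360 pairs. Without labelled knockout library 5 these medians were 0.58, 0.60 and 0.25. The r values are descriptions, since pairs share genes, libraries and scaling. The pattern was not the same for every member. Srebf2 had a median r of -0.058 with the rest of the sterol branch and of -0.47 with the lipogenic genes, where 0 of 18 values of r were above 0. Srebf1 had a median r of 0.58 with the rest of the lipogenic branch and 0.61 with sterol genes. Elovl3 had a median r of 0.12 with the rest of its branch.

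For 4 pairs the relation was tested over the 10 libraries (two-sided permutation test, adjusted by Benjamini-Hochberg over the 4 pairs). Hmgcs1 and Sqle, both of the sterol route, had r = 0.856 (p = 0.00201, adjusted p = 0.00402) and rho = 0.842 (p = 0.00357, adjusted p = 0.00884 by permutation), and r = 0.816 without the libraries farthest from the median of Hmgcs1, labelled knockout libraries 5 and 1 (permutation p = 0.0178). Acly and Fasn had r = 0.943 (permutation p = 0.00038, adjusted p = 0.00152) and rho = 0.697 (permutation p = 0.0313, adjusted p = 0.0417), and r = 0.786 without labelled knockout libraries 5 and 2 (permutation p = 0.0381). With 1 library left out in turn, rho of Acly and Fasn missed the threshold in 6 of 10 cases, without labelled knockout library 1, 2, 3 or 5 or control library 2 or 5 (permutation adjusted p of 0.0674 to 0.145), while r passed in each. Srebf1 and Fasn had r = 0.810 (permutation p = 0.00402, adjusted p = 0.00536) and rho = 0.830 (permutation p = 0.00442, adjusted p = 0.00884). Without labelled knockout libraries 5 and 2, r between Srebf1 and Fasn was 0.372 (permutation p = 0.346), so the relation did not pass there. Taken as deviations from the group means, r without the same libraries was 0.678 (permutation p = 0.0596). On log2(TPM + 1) without labelled knockout libraries 5 and 3, r was 0.761 (permutation p = 0.0293). The libraries left out differed between the 2 scales, and the deviations used group means taken over all libraries. These values therefore do not tell the part of the scale from that of the libraries left out. Srebf2 and Hmgcs1, its textbook target, had r = 0.506 (permutation p = 0.136, adjusted p = 0.136) and rho = 0.442 (permutation p = 0.204, adjusted p = 0.204), and r = 0.499 without labelled knockout libraries 1 and 2 (permutation p = 0.210), so no relation passed the test there. On log2(TPM + 1) the same pair had r = 0.734 (permutation p = 0.0159), and without labelled knockout library 5 r = 0.721 (permutation p = 0.0288, adjusted p = 0.0384). Taken as deviations from the group means, the 4 pairs had r of 0.584 for Srebf2 and Hmgcs1, 0.836 for Hmgcs1 and Sqle, 0.839 for Srebf1 and Fasn and 0.941 for Acly and Fasn.

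The direction of the members followed which libraries were included, although none was called in any of 26 alternatives. Without labelled knockout library 5 the median log2 fold change was -0.19 in the sterol branch and -0.24 in the lipogenic branch, and without control library 2 it was -0.30 and -0.14. Leaving out labelled knockout library 3 moved the medians the other way, to -0.56 and -0.59, and leaving out labelled knockout library 1 gave -0.24 and -0.75. The deposited files carry numbers in 3 consecutive runs, which the labels do not explain, and the third run holds labelled knockout libraries 2, 4 and 5 and no control library. Fitted with the run as a covariate, the median was -0.034 in the sterol branch and 0.12 in the lipogenic branch. Without the third run the medians were -0.043 and 0.12. For the third run, group and run cannot be told apart, and the first and second run hold 3 and 4 libraries, too few for correlations within a run. With the run fitted or the third run left out, labelled knockout libraries 1 and 3 alone carry the group difference.

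Without the 3 libraries with Saa1 above 1000 TPM (labelled knockout 4 and 5, control 4), sterol genes split into 10 below and 10 above 0, and lipogenic genes into 14 and 4. Without the 2 control libraries with Fos above 20 TPM, 18 sterol genes lay below 0 and 2 above, while lipogenic genes split into 11 and 7. The clock activator Arntl exceeded 0.9 TPM in labelled knockout libraries 2 and 5 and no other library, and without these 2, a choice made after seeing the data, the split was 14 and 6 in the sterol branch and 9 and 9 in the lipogenic branch. A total of 10 members kept 1 sign in every setting. They were Acat2, Mvd, Idi1, Fdft1, Sqle, Tm7sf2 and Nsdhl of the sterol branch, and Fasn, Elovl3 and Dgat2 of the lipogenic branch. At their highest, Mvd stood at -0.030, Fdft1 at -0.031 and Sqle at -0.043, while Elovl3 stood at -0.58. The settings share libraries, and the share of all tested genes that kept 1 sign was not counted.

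**Figure D5:**
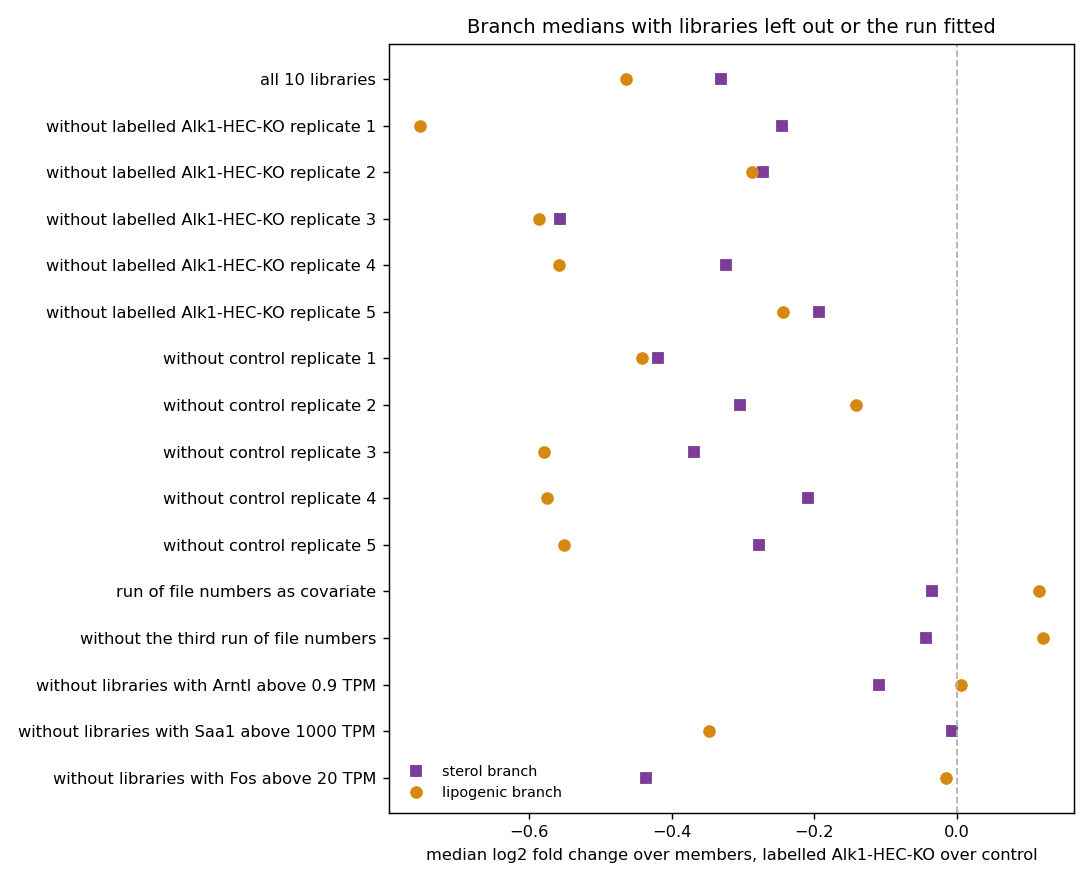
Median log2 fold change over the members of each branch (x axis, labelled Alk1-HEC-KO over control), with all 10 libraries, with each library left out, and with the run or sets of libraries taken into account (y axis). With 1 library left out both medians stay below 0, between -0.56 and -0.19 in the sterol branch and between -0.75 and -0.14 in the lipogenic branch, and the lipogenic median is above 0 in the rows for the run, the third run and Arntl.

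Other genes of the same pathways, from further lists, gave no call in edgeR either; unadjusted p-values under 0.05 were found for 1 other sterol synthesis gene, 0 SREBP processing genes, 1 other lipogenic gene, 2 genes of LXR signalling and sterol transport and 1 lipid droplet gene. Of 6 other sterol synthesis genes 4 were below 0, with a median of -0.19, and the lanosterol demethylase gene Cyp51 had the smallest p (unadjusted 0.0484, edgeR adjusted 0.587), at 31.1, 34.9, 61.5, 37.6 and 20.3 TPM in libraries 1 to 5 labelled Alk1-HEC-KO, against 37.4, 53.4, 32.6, 60.0 and 51.4 TPM in control libraries 1 to 5. The 7 genes that carry and cut SREBPs had a median of -0.054 and 5 were below 0 (3 when scaled by totals). Of 20 other lipogenic genes 17 were below 0 (15 when scaled by totals), with a median of -0.21. Among them Tkt, transketolase of the pentose phosphate pathway, had the smallest p (unadjusted 0.0399, edgeR adjusted 0.575), at 74.9, 56.5, 66.9, 56.9 and 31.0 TPM in libraries 1 to 5 labelled Alk1-HEC-KO, against 77.9, 109, 51.4, 55.2 and 74.5 TPM in control libraries 1 to 5. Labelled knockout library 5 was again the lowest and control library 2 the highest.

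Among 11 genes of LXR signalling and sterol transport 6 were below 0, with a median of -0.10. The sterol exporter gene Abcg1 had a log2 fold change of 0.67 ± 0.24 (SE, adjusted p = 0.460), at 1.18, 1.16, 1.60, 1.94 and 0.740 TPM in libraries 1 to 5 labelled Alk1-HEC-KO, against 0.888, 0.851, 0.395, 0.857 and 0.758 TPM in control libraries 1 to 5. Of 10 tested lipid droplet genes of 12 listed, 6 were below 0 (5 when scaled by totals) and none was called, and Fitm1 had a log2 fold change of -1.69 ± 0.64 (SE, adjusted p = 0.514). Beside these, pericentral hepatocyte genes were the marker list with calls: 6 of 8 were called lower in the labelled knockout libraries. Over all tested genes 0.357% were called in either direction. All 8 pericentral genes were below 0 with an unadjusted p under 0.05 in edgeR, and their median log2 fold change was -2.30. None of 8 periportal genes was called, with 1 at an unadjusted p under 0.05. Leukocyte markers summed to 32.0 to 92.5 TPM in the labelled knockout libraries and 19.2 to 31.9 TPM in the control libraries, and endothelial markers to 35.4 to 68.1 TPM in the labelled knockout libraries and 24.4 to 55.1 TPM in the control libraries. Much of the endothelial sum was Clec4g, at means of 25.6 TPM in the labelled knockout libraries and 25.0 TPM in the control libraries. Of 6 endothelial markers 5 were above 0, with a median log2 fold change of 0.61. None was called, and 3 had an unadjusted p under 0.05 in edgeR. The part of cell makeup in the levels of the members was not tested.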

How the data were processed

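Total RNA of frozen mouse liver, homogenised whole, was sequenced on the BGISeq-500 in 10 libraries, per the labels' protocols. Trim Galore 0.6.4, kallisto 0.4.6 and the build GRCm38.p6 are named, per the submitters' processing notes; how transcripts were summed to genes, the annotation and the use of strand are not given in the sources used here. TPM deposited by the authors (abundance per transcript length, with 1 sum for all libraries) served for levels. Estimated counts deposited by the authors were rounded to whole numbers and served for tests; 38.3% of nonzero ones were whole within 1e-06. Symbols from a GRCm38 annotation (GENCODE) matched 55144 of 55385 IDs, and the other 241 held at most 0.013% of a library.

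The whole table was fitted with edgeR 4.0.16 in R 4.3.3 (filterByExpr with the group, TMM, robust quasi-likelihood fit, group as the only term), and p-values were adjusted by Benjamini-Hochberg over 12872 genes. Log2 CPM used a prior count of 2. Alternatives used DESeq2 1.42.0, limma 3.58.1 on voom weights, log2(TPM + 1) and log2(TPM + 0.1), other scalings and filters, the replicate block, the run of file numbers and libraries left out. Correlations used 100000 permutations. The tests were checked on simulated counts with 200 changed genes. Promoters and their sequences are from RefSeq, and for 8 members (Fdps, Dgat2, Elovl3, Stard4, Sqle, Fads1, Fdft1 and Scd1) no window was matched by symbol.

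The members and all gene lists were chosen with earlier results of these data known. Values in every library are given for Srebf1, Srebf2, Insig1, Mlxipl and, in each branch, the 4 members with the smallest p, the most abundant and the one with the largest change; Thrsp and Pnpla3, whose libraries are also given, were added after their values were seen. From each other list the rule names members called, the smallest p and the most abundant, and from lists beside a result up to 4 by smallest p. Some genes that this rule would name are not reported here.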

Additional observations from a re-analysis of the deposited data

Results flagged for a closer look

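In 4 of the 76 sets of 5 values (38 members in each group) the highest or lowest library stood far from the rest by Dixon's test on TPM, and about 1 set in 20 does so by chance. Mvd was at 21.4 TPM in labelled knockout library 3, with the other 4 of its group between 7.74 and 10.7 TPM. Ebp was at 223.5 TPM in control library 4, with the other control libraries between 118 and 168 TPM. Acly was at 203 TPM in control library 2, where the other control libraries held 50.5 to 80.6 TPM. Gpam was at 70.26 TPM in the same library, with the others between 21.9 and 35.0 TPM.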

How the results depend on the processing

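No member passed an adjusted p of 0.05 in any of the 26 alternatives run on all members. The lowest adjusted p was 0.134, for Elovl3 without control library 4, against 0.134 to 1.0 for that gene over all settings. For Nsdhl the range was 0.214 to 1.0. The number of genes called over all tested genes, 46, was 119 with no filter on low counts, 24 with a mean of at least 50 counts, 152 with DESeq2, 5 with the run of file numbers as covariate, 30 without the libraries with high Saa1, 17 without those with high Fos and 18 without the third run. With 1 library left out in turn it was 33 to 83, the highest without labelled knockout library 1. The median log2 fold change ranged from -0.56 to -0.19 in the sterol branch and from -0.75 to -0.14 in the lipogenic branch with 1 library left out. Correlations ranged from 0.317 to 0.721 for Srebf2 and Hmgcs1, 0.811 to 0.892 for Hmgcs1 and Sqle, 0.660 to 0.877 for Srebf1 and Fasn and 0.887 to 0.973 for Acly and Fasn. Without labelled knockout library 5, r of Srebf1 and Fasn no longer passed (permutation p = 0.0538 after adjustment), while rho did (permutation p = 0.0429 after adjustment). The rho of Acly and Fasn missed the threshold in 6 of 10 such settings, with adjusted permutation p of 0.0674 to 0.145. Srebf2 and Hmgcs1 passed on log2(TPM + 1), with r = 0.734.

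Log2 fold changes of the members changed sign as follows. With the run as covariate they were Srebf2 -0.060, Insig1 0.40, Mvk 0.047, Pmvk 0.12, Fdps 0.0093, Lss 0.19, Ebp 0.19, Sc5d 0.39, Dhcr7 0.17, Srebf1 0.48, Mlxipl 0.092, Thrsp 0.079, Acly 0.15, Acss2 0.16, Acacb 0.053, Elovl5 0.15, Scd1 0.36, Fads1 0.14, Fads2 0.25, Gpam 0.28 and Pnpla3 0.69. Without the third run they were Srebf2 -0.042, Insig1 0.38, Stard4 0.0058, Pmvk 0.13, Lss 0.21, Ebp 0.17, Sc5d 0.39, Dhcr7 0.17, Srebf1 0.48, Mlxipl 0.090, Thrsp 0.27, Acly 0.13, Acss2 0.18, Elovl5 0.11, Scd1 0.19, Fads1 0.14, Fads2 0.26, Gpam 0.25 and Pnpla3 0.16. Without libraries with high Arntl they were Srebf2 -0.11, Insig1 0.15, Pmvk 0.057, Lss 0.058, Ebp 0.083, Sc5d 0.25, Dhcr7 0.068, Srebf1 0.38, Mlxipl 0.059, Thrsp 0.017, Acss2 0.079, Elovl5 0.033, Scd1 0.10, Fads1 0.025, Fads2 0.088 and Gpam 0.034. Without libraries with high Saa1 they were Insig1 0.035, Hmgcs1 0.050, Mvk 0.043, Lss 0.017, Msmo1 0.040, Hsd17b7 0.074, Ebp 0.086, Sc5d 0.13, Dhcr7 0.073, Srebf1 0.071, Elovl5 0.039, Fads1 0.031 and Fads2 0.15. Without libraries with high Fos they were Insig1 0.060, Me1 0.24, Acaca 0.092, Acacb 0.030, Elovl5 0.62, Elovl6 0.047, Scd1 0.92 and Pnpla3 1.09. Scaled by totals, Srebf1 was 0.025, and limma gave Elovl5 0.060 on log2(TPM + 1) and 0.061 on log2(TPM + 0.1). With 1 library left out, the ranges were -0.26 to 0.27 for Elovl5, -0.42 to 0.032 for Insig1, -1.07 to 0.33 for Pnpla3, -0.49 to 0.030 for Sc5d, -0.94 to 0.20 for Scd1 and -0.41 to 0.13 for Srebf1. The causes were not tested. With the replicate number as a block, the branch medians were -0.38 and -0.38, 40 genes were called, and no member was. Same-numbered libraries correlated at -0.10 to 0.28 in their deviations from group means, so the numbers were not taken as pairs. Pnpla3, with at most 63 counts, was left out by the filter on a mean of 50 counts.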
